A study of Mus musculus with 2 samples.

Results

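DNA methylation is written and removed by a small set of enzymes, and 10 mouse genes of this set were followed here: Dnmt1, Uhrf1 and Uhrf2 for maintenance, Dnmt3a, Dnmt3b and Dnmt3l for de novo methylation, and Tet1, Tet2, Tet3 and Tdg for oxidation and excision. The members are all probe sets that name one of these genes and no other gene. They came to 22 of 45101 probe sets and covered 9 of the 10 genes. Tdg had none of its own, because its 3 probe sets also name the pseudogenes Tdg-ps and Tdg-ps2, and it has no value here.

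The samples were PGK12.1 cells after 15 days of embryoid body differentiation and undifferentiated PGK12.1 cells, with 1 array for each. PGK12.1 is a female mouse embryonic stem cell line from blastocysts, with a 129 mother and a (129 X PGK)F1 father, and both samples carry that genotype. Xist RNA FISH had shown 1 active X chromosome at day 15 and 2 active X chromosomes in undifferentiated cells. Stem cell cultures had feeder fibroblasts and leukemia inhibitory factor (LIF), and feeders were depleted on gelatin before collection or differentiation. All cells descend from 1 line, and an embryoid body is a mixture of cell types, so in these bulk samples fewer cells of a type and less RNA per cell cannot be told apart.

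In mammals, methyl groups sit mostly on the cytosine of CpG dinucleotides. DNMT1 copies the pattern onto the new DNA strand after replication, guided by UHRF1, which binds hemimethylated CpG. DNMT3A and DNMT3B set new methylation, helped by DNMT3L, a relative without catalytic activity of its own. TET enzymes oxidise 5-methylcytosine, and TDG excises the further oxidised bases so that base excision repair can restore cytosine. Embryonic stem cells are known for high Tet1, Dnmt3b and Dnmt3l transcript levels, and maintenance and oxidation run side by side in them.

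Values are signal intensities of single probe sets on a linear scale. A log2 difference is log2(signal + 16) at day 15 minus the same in undifferentiated cells, so a negative value is lower at day 15. Each gene is represented by its brightest probe set, and it entered the counts if its mean was no lower than the array-wide median of probe sets, a signal of about 36.5 (called the filter here). Because each condition has a single array, replicate error is unknown and no test or p-value can be given, and a gene was called by size alone, at 2-fold on this scale. A yardstick for spread is the SD of 0.53 in log2 difference between probe sets of the same gene. Those probe sets share the same arrays, so it covers neither error between arrays nor variation between cultures. Signals ran from 0 to 17574.5 on the day 15 array, with a median of 39, and from 0.1 to 17939 on the undifferentiated array, with a median of 35.1. The ratio of 3′ to 5′ control probe sets, a sign of RNA integrity, was 0.817 at day 15 and 0.815 in undifferentiated cells for Gapdh, and 1.72 and 2.34 for Actb. The highest signal of 15 bacterial control probe sets that showed no target on either array was 35.6.

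Of the 9 measured genes, 8 lay above the filter. Dnmt3l, Dnmt3b, Tet1 and Uhrf1, 4 of these 8, were past 2-fold lower at day 15, against 8.41% of the 11960 genes above the filter. None of the 8 was past 2-fold higher, against 16.5% of those genes. On the brightest probe set 7 of the 8 had a negative difference, and Uhrf2 was the exception. Their median log2 difference was -1.22, against 0.00052 over all genes. Bright genes leaned slightly lower on these arrays: above the 75th percentile of signal, where all 8 members also lay, the median was -0.12, and the share past 2-fold lower was 9.79% of 6995 genes. By class, the median was -1.87 for the 3 de novo genes, -1.26 for the 2 oxidation genes above the filter and -0.89 for the 3 maintenance genes. The classes overlapped gene by gene, since Dnmt3a at -0.93 and Tet2 at -0.94 lay beside Dnmt1 at -0.89, and Uhrf1 at -1.49 beside Tet1 at -1.58.

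**Figure D1:**
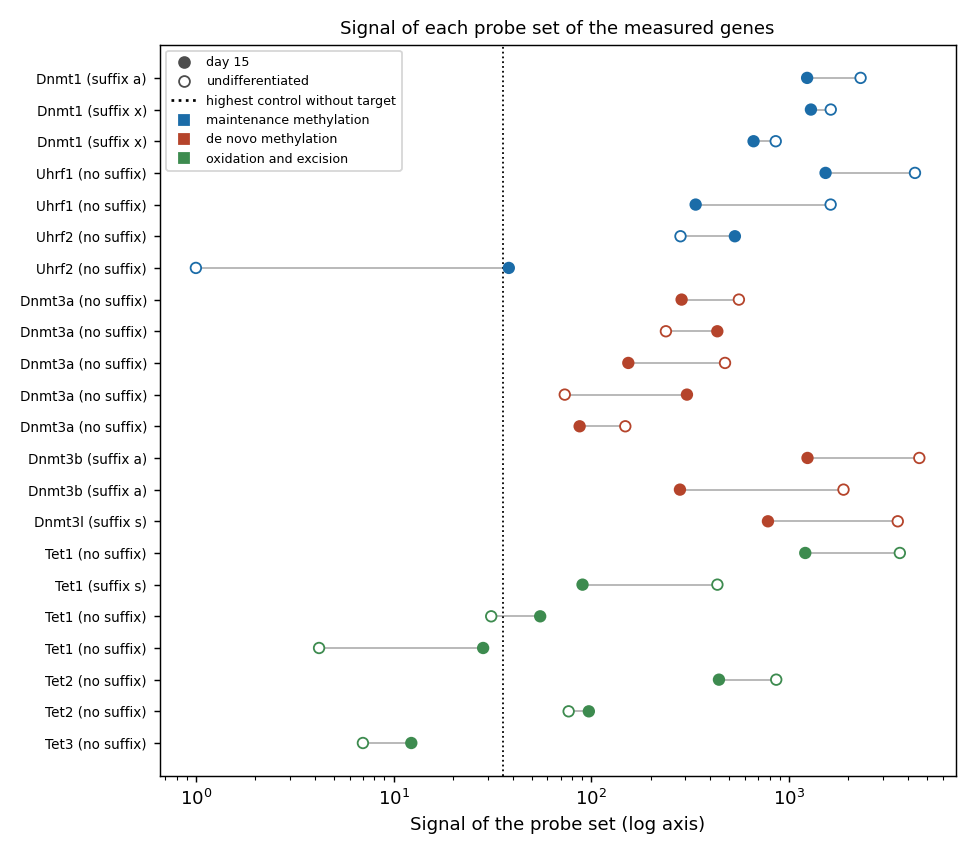
Signal of each of the 22 probe sets on a log axis, with filled points for day 15, open points for undifferentiated cells, and colours for the class; the dotted line is the highest control without target, 35.6. Both Uhrf1, both Dnmt3b, the Dnmt3l and all 3 Dnmt1 probe sets lie to the left at day 15, while the 5 Dnmt3a probe sets go both ways.

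The de novo genes held the members with the largest differences. Dnmt3l, the catalytically inactive partner that stimulates DNMT3A and DNMT3B and is known for its role in germ cell imprinting, had a signal of 784 at day 15 and 3556 in undifferentiated cells. That is 4.54-fold lower at day 15, a log2 difference of -2.16, and 44 of the 11960 genes (0.368%) had a difference as low or lower. It rests on 1 probe set, whose suffix s means that it matches more than 1 transcript. Dnmt3b, the de novo enzyme prominent in the early embryo, read 1243 at day 15 and 4572 in undifferentiated cells on its brighter probe set, 3.68-fold lower at a log2 difference of -1.87. The other Dnmt3b probe set read 281 at day 15 and 1890.2 in undifferentiated cells, 6.72-fold lower. Both Dnmt3b probe sets were thus past 2-fold in the same direction, and 97 genes (0.811%) lay as low as the brighter one or lower.

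Dnmt3a, the de novo enzyme that predominates in somatic tissues, did not give a single answer. Its 5 probe sets all lay above the filter, and 3 were lower and 2 higher at day 15. The brightest read 287 at day 15 and 559 in undifferentiated cells, a log2 difference of -0.93. A second lower one read 154 at day 15 and 475 in undifferentiated cells, 3.09-fold lower, and the last of them read 87.4 at day 15 and 149 in undifferentiated cells. The higher ones read 435 at day 15 and 239 in undifferentiated cells, and 305 at day 15 and 73.5 in undifferentiated cells, the last being 4.15-fold higher. The 5 log2 differences ran from -1.53 to 1.84, a range of 3.37, and their mean was -0.093. Among 180 genes with 5 probe sets above the filter, 4 had a range at least as wide, Dnmt3a included, and the median range was 0.90. A probe set at least 2-fold lower together with another at least 2-fold higher was found in 9 of the 5157 genes that had several probe sets above the filter (0.175%), and Dnmt3a is one of the 9, a count made after its values were seen. Among the 180 genes with 5 such probe sets it was found in 2 (1.11%), Dnmt3a included. No direction for Dnmt3a as a whole can be read from these arrays.

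Mouse Dnmt3a is known to produce a long and a short protein form from separate start sites, and the short form, from an internal start, is known as the main form of embryonic stem cells. The RefSeq windows, which cover 250 bases before to 50 bases after each annotated start, include 3 for Dnmt3a: a pair of upstream starts 180 bases apart and an internal start 84764 bases from the first. Which probe set reads which form was not determined here. The de novo windows are shown because the genes of this class differ in CpG content, the substrate of the enzymes themselves. They are from build GRCm38.p6, written 5′ to 3′ on the gene's strand, with each CG in capitals.
Dnmt3a upstream start, chr12:3806730-3807029, plus strand: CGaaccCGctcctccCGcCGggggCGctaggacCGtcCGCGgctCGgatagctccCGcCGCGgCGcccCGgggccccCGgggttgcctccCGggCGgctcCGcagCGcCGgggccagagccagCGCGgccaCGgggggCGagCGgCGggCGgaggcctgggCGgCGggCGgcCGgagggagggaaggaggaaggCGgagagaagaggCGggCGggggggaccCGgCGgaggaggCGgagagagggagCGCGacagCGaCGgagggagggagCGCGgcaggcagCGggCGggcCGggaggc
Dnmt3a internal start, chr12:3891494-3891793, plus strand: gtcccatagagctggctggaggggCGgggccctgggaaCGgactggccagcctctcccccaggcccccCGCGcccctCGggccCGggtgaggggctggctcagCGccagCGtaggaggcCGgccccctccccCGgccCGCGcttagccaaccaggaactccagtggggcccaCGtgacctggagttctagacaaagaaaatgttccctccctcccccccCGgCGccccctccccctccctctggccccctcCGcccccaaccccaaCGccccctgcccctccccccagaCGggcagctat
Dnmt3b, chr2:153649199-153649498, plus strand: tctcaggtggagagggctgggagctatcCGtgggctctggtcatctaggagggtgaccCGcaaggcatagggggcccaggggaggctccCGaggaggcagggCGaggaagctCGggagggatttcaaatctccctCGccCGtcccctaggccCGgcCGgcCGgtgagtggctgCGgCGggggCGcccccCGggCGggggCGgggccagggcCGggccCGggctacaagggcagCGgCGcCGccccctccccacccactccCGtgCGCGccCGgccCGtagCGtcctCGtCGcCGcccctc
Dnmt3l first start, chr10:78042037-78042336, plus strand: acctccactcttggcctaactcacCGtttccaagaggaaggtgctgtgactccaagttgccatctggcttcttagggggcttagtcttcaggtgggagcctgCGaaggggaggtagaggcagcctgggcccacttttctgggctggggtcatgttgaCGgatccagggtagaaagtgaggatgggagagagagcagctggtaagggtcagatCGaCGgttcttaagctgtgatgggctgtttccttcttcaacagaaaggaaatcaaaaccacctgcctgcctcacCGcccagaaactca
The upstream Dnmt3a window holds 46 CpG, a content reached by 1.65% of the 32851 windows in the table, and the internal one holds 18, reached by 29.7%. The Dnmt3b window holds 30 CpG. The first Dnmt3l window holds 6, below the median of 7 over all windows, and the other Dnmt3l windows hold 4 and 3. Both Dnmt3b and Dnmt3l were past 2-fold lower at day 15, so CpG-rich and CpG-poor starts were both found among the lower members.

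**Figure D2:**
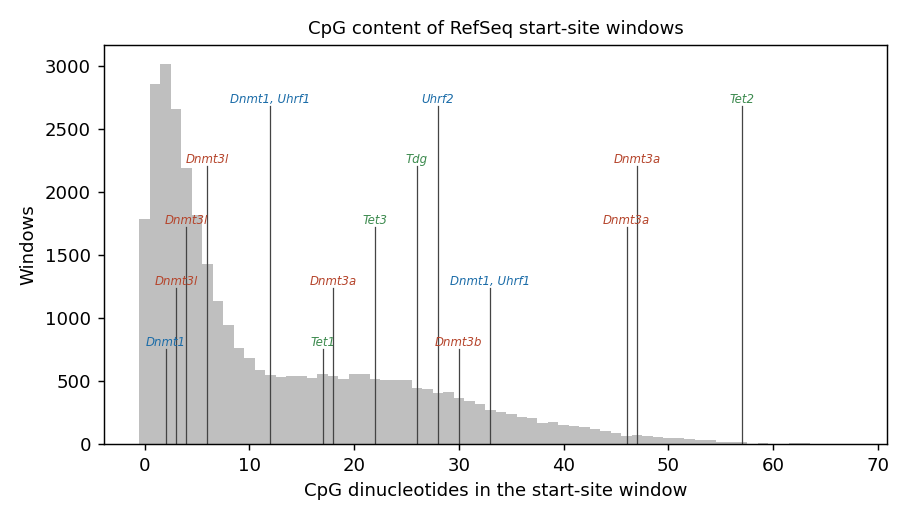
Number of RefSeq start-site windows (vertical axis) by their CpG count (horizontal axis), with the windows of the 10 genes marked at their counts in the colour of their class. The 3 Dnmt3l windows lie at 6 CpG or fewer, and the Tet2 window (57) and both upstream Dnmt3a windows (46 and 47) at the far right.

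Among the maintenance genes, Uhrf1 was lower at day 15, Dnmt1 lower by a smaller step and Uhrf2 higher. Uhrf1, which brings DNMT1 to newly replicated DNA, read 1534 at day 15 and 4346 in undifferentiated cells on its brighter probe set, 2.83-fold lower at a log2 difference of -1.49. The other Uhrf1 probe set read 338 at day 15 and 1627 in undifferentiated cells, 4.82-fold lower. Both were past 2-fold, and 271 genes (2.27%) lay as low as the brighter one or lower. Dnmt1, the maintenance methyltransferase, read 1237 at day 15 and 2306.5 in undifferentiated cells on the brightest of 3 probe sets, 1.86-fold lower. The other Dnmt1 probe sets read 1293 at day 15 and 1629 in undifferentiated cells, and 663 at day 15 and 858 in undifferentiated cells. All 3 Dnmt1 probe sets were lower at day 15, with log2 differences between -0.89 and -0.33, none reached 2-fold, and these other probe sets carry the suffix x, given to probe sets that may cross-hybridise.

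Uhrf2, a paralog of Uhrf1 with the same domains that does not replace it in maintenance, read 533 at day 15 and 283 in undifferentiated cells. That is 1.88-fold higher at day 15, a log2 difference of 0.88, short of the 2-fold call and matched or exceeded by 18.6% of genes. A second, dim Uhrf2 probe set below the filter read 38.3 at day 15 and 1.00 in undifferentiated cells, and only the day 15 signal was above the highest control. The paralogs Uhrf1 and Uhrf2 thus differed in direction on every probe set, by 2.37 on the log2 scale between their brightest ones.

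Dnmt1 and Uhrf1 each have a start-site window with the same feature. E2F factors drive genes of the G1 to S transition, and their motif was searched as TTTCGCGC and TTTGGCGC on both strands. Of 32851 windows, 267 (0.813%) hold a match, and among the 17 windows of the 10 genes the 2 with a match were of Dnmt1 and Uhrf1. Those windows are shown with the motif in capitals, on the gene's strand in build GRCm38.p6.
Dnmt1, chr9:20952574-20952873, minus strand: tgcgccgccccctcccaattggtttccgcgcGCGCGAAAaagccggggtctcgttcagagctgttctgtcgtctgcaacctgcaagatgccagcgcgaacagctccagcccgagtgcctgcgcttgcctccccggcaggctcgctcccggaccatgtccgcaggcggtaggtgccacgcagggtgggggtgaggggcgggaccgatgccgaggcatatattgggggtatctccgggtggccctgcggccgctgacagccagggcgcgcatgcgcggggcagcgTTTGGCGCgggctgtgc
Uhrf1, chr17:56304063-56304362, plus strand: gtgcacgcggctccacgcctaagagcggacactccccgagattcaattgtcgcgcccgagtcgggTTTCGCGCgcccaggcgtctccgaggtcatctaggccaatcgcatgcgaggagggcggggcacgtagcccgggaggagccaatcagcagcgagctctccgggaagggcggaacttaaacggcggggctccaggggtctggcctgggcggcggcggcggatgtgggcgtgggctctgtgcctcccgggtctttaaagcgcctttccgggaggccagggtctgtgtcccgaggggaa
In the Dnmt1 window a match on the opposite strand begins 219 bases before the start site and another, TTTGGCGC, 33 bases after it. In the Uhrf1 window TTTCGCGC begins 185 bases before the start site. Both windows shown belong to the most downstream annotated start of their gene, and distances are from that start. Which start these cells use was not determined. Each of the windows shown holds 33 CpG. The other windows of Dnmt1 (12 and 2 CpG) and of Uhrf1 (12 CpG) hold no match. A match is a description of these letters and not a bound site, and the windows of Uhrf2 and of the de novo and oxidation genes hold no such letters. Among 16 genes of DNA replication and the S phase with a window, 6 held a match.

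Of 20 listed S phase genes, all above the filter, 6 passed 2-fold lower at day 15 (30.0%, against 8.41% of all genes), 0 passed 2-fold higher and 14 lay within 2-fold. A negative difference was found for 19, and the median was -0.77. Ccne1, a G1/S cyclin, read 902 at day 15 and 3396 in undifferentiated cells (log2 difference -1.89). The replicative helicase subunit Mcm2 was 2.78-fold lower, the helicase loader Cdc6 2.65-fold and the helicase subunit Mcm3 2.60-fold. Uhrf1 at -1.49 and Dnmt1 at -0.89 lay within the range of this list, -1.89 to 0.27, with Ccne1 the only gene of it lower than Uhrf1. The part of the S phase genes in the maintenance result was not tested.

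Among the oxidation genes, the Tet1 probe sets that measured well were lower, Tet2 was mixed, and Tet3 was not measurable. Tet1, the principal 5-methylcytosine oxidase of embryonic stem cells together with Tet2, read 1211 at day 15 and 3643 in undifferentiated cells, 3.01-fold lower at a log2 difference of -1.58. A second Tet1 probe set, which carries the suffix s, read 90.4 at day 15 and 435 in undifferentiated cells, 4.81-fold lower. Another read 55.2 at day 15 and 31.2 in undifferentiated cells, and the fourth, below the filter, 28.4 at day 15 and 4.20 in undifferentiated cells. The brighter Tet1 probe sets thus agreed in direction, whereas the 2 dim ones, with 3 of their 4 signals below the highest control, pointed the other way. The third of them above the filter had its undifferentiated signal below that control, so the spread between Tet1 probe sets has no firm size.

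Tet2, an oxidase that lacks the CXXC DNA-binding domain found in Tet1, read 443 at day 15 and 863 in undifferentiated cells on its brighter probe set, a log2 difference of -0.94. Its other probe set read 97.3 at day 15 and 76.9 in undifferentiated cells, a log2 difference of 0.29. The Tet2 window, at 57 CpG, was among the richest in the table, with 0.152% of windows holding as many. Tet3, the oxidase of the oocyte and zygote, had 1 probe set, which read 12.3 at day 15 and 7 in undifferentiated cells. Both signals were below the highest control without target, so no fold is given.

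**Figure D3:**
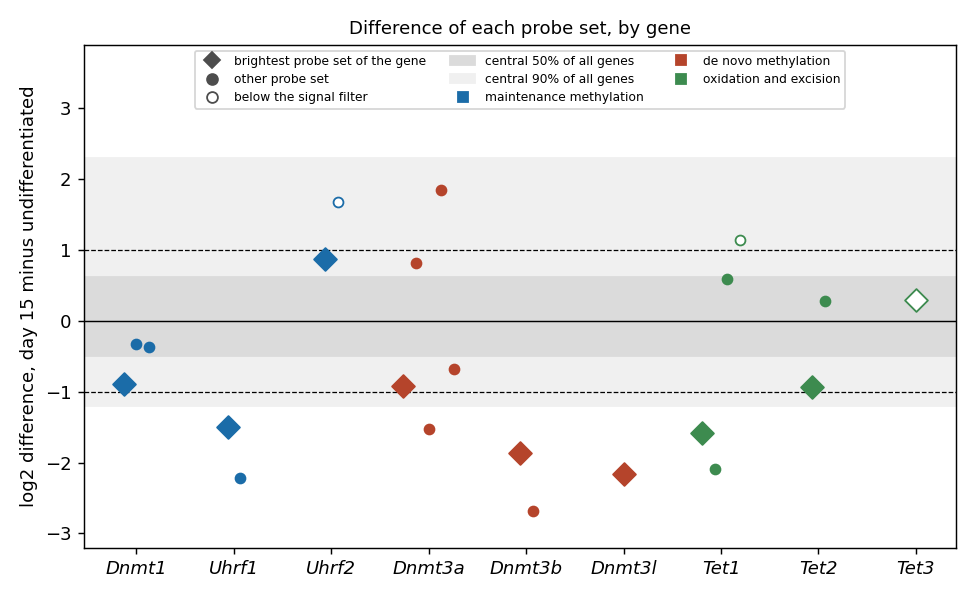
log2 difference (day 15 minus undifferentiated) of each probe set by gene, with diamonds for the brightest probe set, circles for the others and open symbols below the signal filter; dashed lines mark 2-fold and grey bands the central 50% and 90% of all genes. Dnmt3b, Dnmt3l and Uhrf1 lie below the lower dashed line on every probe set, and Dnmt3a spans -1.53 to 1.84.

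Probe set agreement could be read for 6 members that had several probe sets above the filter. Dnmt1, Uhrf1 and Dnmt3b had all such probe sets on the same side of 0, and Dnmt3a, Tet1 and Tet2 had them on both sides. Tet1 did so only through a dim probe set (55.2 at day 15, 31.2 in undifferentiated cells). That probe set passed the filter through its day 15 signal alone, and the other 2 of Tet1 were both lower (-1.58 and -2.08). The place of Tet1 among the genes with opposite directions is thus not firm. Over all 5157 genes with several such probe sets, 30.1% had opposite directions. The share was 22.7% of genes with 2 probe sets (as Uhrf1, Dnmt3b and Tet2), 38.3% with 3 (as Dnmt1 and Tet1) and 46.7% with 5 (as Dnmt3a). The ranges of Dnmt1 (0.56), Uhrf1 (0.72) and Dnmt3b (0.82) were reached by 58.4%, 24.3% and 19.4% of the genes with as many probe sets. Those of Tet2 (1.22) and Dnmt3a (3.37) were reached by 7.66% and 2.22%, and that of Tet1 is not ranked because of its dim probe set. With the mean over all probe sets in place of the brightest, the log2 difference was -0.48 for Tet1, -0.33 for Tet2 and -0.093 for Dnmt3a, and Tet1 was then not called.

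**Figure D4:**
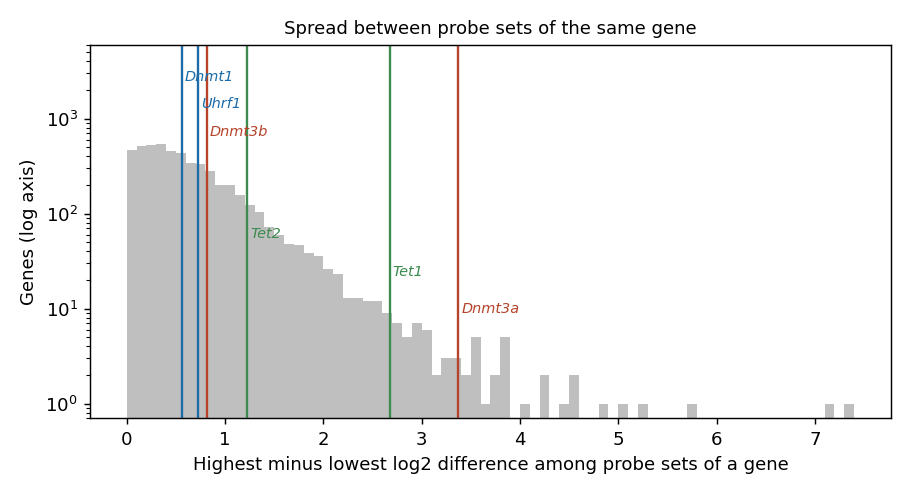
Number of genes (log axis) by the range of log2 differences among their probe sets above the filter, for the 5157 genes with several, with coloured lines at the 6 members. Dnmt1, Uhrf1 and Dnmt3b lie in the bulk of the distribution, and Dnmt3a (3.37) in its sparse right tail. The Tet1 line (2.68) rests on a dim probe set.

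Other genes of the pathway were described from 6 lists of readers, repair factors, partners and methyl donor synthesis. Of 76 listed genes 66 were measured and 63 lay above the filter. Past 2-fold lower were 16 of them (25.4%) and past 2-fold higher 4 (6.35%), with a median of -0.65, against 8.41% lower and 16.5% higher over all genes. Zbtb4 and Cxxc4, among the higher ones, passed the filter through their day 15 signal alone. The count of lower genes was 33 on the hybridization controls, where 18.8% of all genes were lower, and 10 with the mean over probe sets, where 6.56% were. Of 10 partners of the maintenance enzyme 6 passed 2-fold lower (60.0%) and 0 higher, with a median of -1.14. A negative difference was found for 9 of them. Dppa3, which restrains UHRF1 in oocytes and early embryos, read 153 at day 15 and 1101 in undifferentiated cells (7.22-fold lower). Lig1, the replicative DNA ligase that recruits UHRF1, was 3.13-fold lower, and Cdca7, which activates the remodeller HELLS, 2.77-fold lower.

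Among the partners of the de novo enzymes no gene was called. The list is too small to set this apart from the 8.41% lower and 16.5% higher over all genes. On the brightest probe set all 12 genes above the filter had a negative difference, with a median of -0.71. On that probe set 0 of the 12 reached 2-fold in either direction. Other probe sets above the filter did: Ehmt2 had another at 1.29, and Nsd2 had 2 of 3 higher, up to 1.63. Past 2-fold lower were 2 of 3 probe sets of Suv39h2 and 1 of 3 of Cbx5. The imprint-protecting zinc finger gene Zfp57 read 250.1 at day 15 and 515 in undifferentiated cells, just short of the call. The H3K9 methyltransferase gene Setdb1 had a log2 difference of -0.86, and Setd2, whose H3K36 trimethylation recruits DNMT3B, of -0.83. The partners and cofactors of TET held 4 of 11 past 2-fold lower and 1 higher, against 8.41% and 16.5% of all genes, with a median of -0.52. Lin28a, an RNA-binding protein reported to recruit TET1, was 4.37-fold lower and the chromatin protein gene Bend3 2.83-fold lower. Cxxc4, a CXXC protein that binds TET2 and lowers its level, was at least 3.28-fold higher (117 at day 15, 24.1 in undifferentiated cells). It passed the filter through its day 15 signal alone.

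Of the repair factors and deaminases 5 of 16 passed 2-fold lower (31.2%, against 8.41% of all genes) and 1 higher (6.25%, against 16.5%), with a median of -0.60. Parp1, the strand-break sensor, was 2.46-fold lower, with all 4 probe sets lower, and the cytidine deaminase gene Apobec3 2.47-fold lower. Gadd45g, a stress-response gene, read 500.4 at day 15 and 157 in undifferentiated cells. Of 7 methyl donor synthesis genes 1 passed 2-fold lower and 0 higher, numbers too small to set apart from those shares, and the median was -0.65. The gene past 2-fold was the serine hydroxymethyltransferase gene Shmt1, 3.79-fold lower. Mthfd1 (log2 difference -0.92, with 1 of 3 probe sets near 0) and Ahcy (-0.76) lay within 2-fold.

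The methyl-CpG readers were the pathway list with a median above 0. Their median was 0.58. Of 7 genes 2 passed 2-fold higher at day 15 and 0 lower, a count too small to set apart from the 16.5% of all genes that passed 2-fold higher. Zbtb4, a zinc finger protein that binds methylated CpG, read 225 at day 15 and 4.50 in undifferentiated cells, at least 6.33-fold higher, and it passed the filter through its day 15 signal alone. Mbd2, a methyl-CpG-binding protein of the NuRD complex, read 525 at day 15 and 184 in undifferentiated cells, 2.85-fold higher. Zbtb38 had a log2 difference of 0.77 on its brighter probe set and -0.04 on the other.

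**Figure D5:**
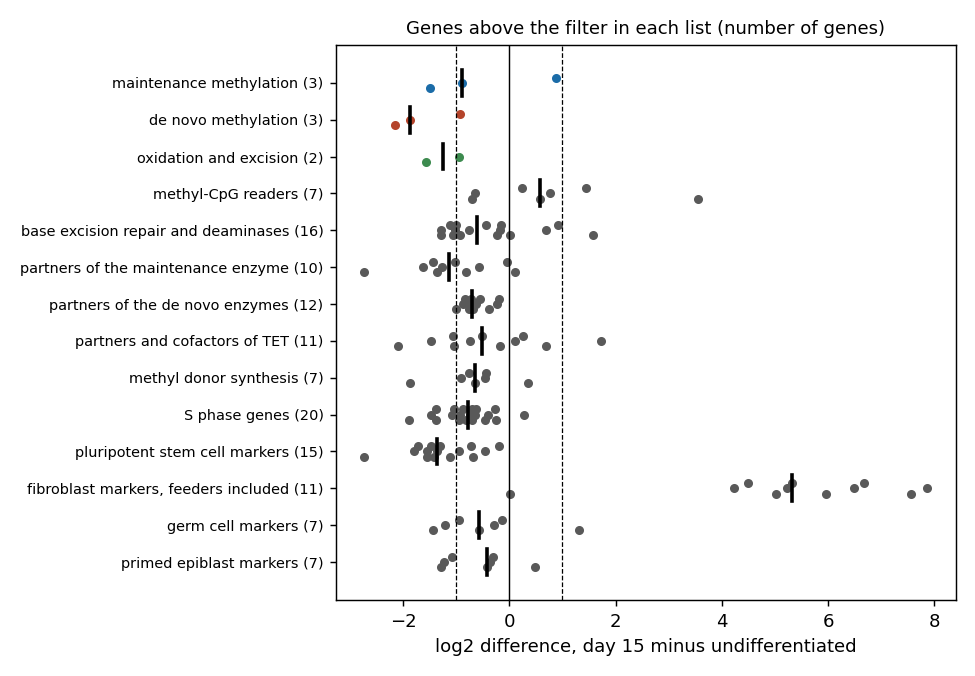
log2 difference (day 15 minus undifferentiated) of each gene above the filter by list, with the number of genes in brackets, a black bar at the median and dashed lines at 2-fold. The de novo genes (-1.87) lie lowest by median, the readers (0.58) and fibroblast markers (5.31) lie above 0.

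Marker lists of 4 cell types were read beside the shares of all genes, 8.41% past 2-fold lower and 16.5% higher. Of 15 pluripotent stem cell markers, 10 passed 2-fold lower at day 15 and 0 higher, with a median of -1.36, led by Dppa3, Sall4 (3.51-fold lower), Utf1 (3.31-fold) and Klf2 (2.97-fold). Their summed signal was 23393 at day 15 and 52510.2 in undifferentiated cells, none was at 0 on either array, and the dimmest at day 15 was Dppa3 at 153. Of 11 measured fibroblast markers, which feeders also express, 10 passed 2-fold higher, with a median of 5.31 and a summed signal of 40848 at day 15 and 574 in undifferentiated cells. Col1a1 (7728 at day 15, 17.2 in undifferentiated cells), Col3a1, Lum and Postn led them. The undifferentiated signals of Col1a1, Lum, Postn, Col6a1 and Pdgfrb lay below the highest control. These genes passed the filter through their day 15 signal alone. Of 7 primed epiblast markers above the filter 3 passed 2-fold lower, 0 passed higher and 4 lay within 2-fold (median of -0.43). Foxd3, Otx2 and Pou3f1 were the lower ones, at 2.58-fold, 2.42-fold and 2.23-fold, and Sall2 measured 0.48. Of 7 germ cell markers 2 were lower, Tex19.1 (2.75-fold) and Ddx4 (2.49-fold), and 1 higher, Stra8 (2.93-fold). The other 4 lay within 2-fold, Prdm1 among them at -0.94. These germ cell counts are too small to set apart from the shares of all genes. The differences of Tet1 (-1.58) and Uhrf1 (-1.49) lay within the range of the pluripotency markers, -2.73 to -0.19. Dnmt3b (-1.87) and Dnmt3l (-2.16) lay between the lowest marker, Dppa3 at -2.73, and the next, Sall4 at -1.80. They were thus lower than every marker but Dppa3. The part of these cell types in the differences of the methylation genes was not tested.

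Scaling changed the number of calls. Scaling on 18 bacterial hybridization control probe sets, whose log2 ratio of day 15 over undifferentiated averaged 0.39, moved the median gene by -0.36, and quantile normalization moved it by -0.13. Relative to the median gene of each setting, Dnmt3l measured -2.19 on the hybridization controls and -1.93 with quantile normalization, Dnmt3b -1.90 and -1.63, and Uhrf2 0.86 and 0.84. On the hybridization controls 7 members passed 2-fold lower on their brightest probe set, against 18.8% of all genes, because Dnmt1 (-1.28), Dnmt3a (-1.29) and Tet2 (-1.31) crossed the line. For Dnmt3a and Tet2 these values are of the brightest probe set, and others of theirs were higher at day 15 as deposited. A further Dnmt3a probe set was already 3.09-fold lower as deposited. With quantile normalization 6 passed, against 11.4% of all genes.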

How the data were processed

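Biotinylated cRNA was hybridised to Affymetrix arrays, per the labels' protocols. The deposited values are linear signal intensity, 1 per probe set and array; the summarising software is not given in the sources used here. Trimmed means (2% off each tail) matched between arrays, so the authors' deposited intensity had been scaled. The 64 control probe sets were set aside. Of 45037 others, 34945 name 1 gene in GEO's platform annotation, 932 name several and were not used, and 9160 are unlisted; symbols were updated through RefSeq (GRCm38.p6). Sequences are RefSeq's, and all 10 genes matched. Differences used Python 3.11.15, numpy 2.4.6 and pandas 2.3.3, with a pseudocount of 16 that damps dim genes; folds are signal ratios, bounded at 35.6 ("at least") where the dimmer signal lies below it, with none given where both do. The number of arrays limits the precision. Calling was tested on simulated data. The planted differences lay well past 2-fold and no culture was simulated, so that test gives no measure of replicate error.

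The members, lists and alternatives were chosen with earlier results of these data known. All members were named, with the up to 3 genes of each pathway list, and up to 4 of the S phase and marker lists, that had the largest absolute difference above the filter. No genes of like pattern were named, since 2 arrays give 1 difference per gene. Alternatives were both other scalings, pseudocounts of 1 and 64, dropping the filter or raising it to the 75th percentile, averaging a gene's probe sets, and omitting suffixes a, s and x.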

Additional observations from a re-analysis of the deposited data

Results flagged for a closer look

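Spike control transcripts, which no comparison above uses, differed between the arrays. The 6 Lys probe sets read at least 5124 on the day 15 array and at most 15.3 on the undifferentiated array. The 6 Dap probe sets read at most 18.1 on the day 15 array and at least 4158 on the undifferentiated array. They stand out as signal on 1 array at a level absent from the other, and their part in the results was not tested.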

How the results depend on the processing

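Pseudocounts and filters cannot turn a sign. Scaling on the hybridization controls lowers every day 15 signal, so among these members it could turn only the sign of Uhrf2. Under both other scalings and the mean over probe sets, the 8 members above the filter kept the sign of their difference. For Dnmt3a, at -0.093 with that mean, this gives no direction, since its probe sets go both ways. Dnmt3a, Tet1 and Tet2 moved by more than 0.53 with that mean, under which Dnmt3b (-2.27) lay below Dnmt3l (-2.16). That setting gave 1 member at least 2-fold higher (Uhrf2, 1.28) against 0, a median of -0.51 over all members and -0.40 for the oxidation genes, and 10 lower and 2 higher pathway genes against 16 and 4. Leaving out probe sets with suffix a, s or x removed Dnmt1, Dnmt3b and Dnmt3l. Of the 5 members left above the filter 2 were lower, with 8.64% of all genes lower, against 4 of 8. The values of these 2, Uhrf1 and Tet1, did not change, and the called genes Dnmt3b and Dnmt3l were gone. The median was then -0.31 for maintenance genes and -0.93 for de novo genes, the latter from Dnmt3a alone. Scaling on the hybridization controls gave 7 members and 33 pathway genes lower, and quantile normalization 6 members, with 18.8% and 11.4% of all genes lower. The filter at the 75th percentile gave 2 pathway genes higher. Of all genes past 2-fold, 66.3% were higher as deposited, 54.6% with quantile normalization and 37.7% on the hybridization controls. Except as the settings' own construction shows it, the cause was not tested. Dim probe sets of Tet1, Tet3 and Uhrf2 lay near the control signal. No paired analysis was possible because each condition has 1 array.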
